A study of Mus musculus with 4 samples.

Results

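Axons of mouse dorsal root ganglion (DRG) neurons after electrical stimulation were compared with axons that had no stimulation, gene by gene, on 2 of the 4 arrays of the series. The other 2 arrays hold the cell body compartments of the same conditions and appear here only beside an axon value. Of 9600 spots on an array, 8496 carry a cDNA clone that names 1 gene, and these cover 6284 genes, all of which are described here. The members were not chosen by their values, since every gene named by a clone enters.

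The neurons came from NIH Swiss mice at embryonic day 13.5 and were grown for 3 weeks in multi-compartment Campenot chambers, in which axons pass beneath a barrier and leave the cell bodies behind. The neurons of the stimulated group were stimulated for 2 h through platinum electrodes and those of the unstimulated group were not, and no gene was altered in either. Both groups share the serum-free medium that was given overnight before the experiment, and the drug treatment that stops division of non-neuronal cells. Per the labels each array received RNA from 3 pooled coverslips, while the methods describe pooling over separate experiments. There is therefore 1 array per condition, no replicate and no p-value, and each value below describes these 2 arrays. In bulk RNA, fewer axons in a compartment and less of a transcript per axon cannot be told apart. The RNA is from mouse while the clones are human cDNA, so genes carry human symbols here.

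An axon holds its own pool of mRNA, carried from the cell body by motor proteins as particles with RNA-binding proteins. Local translation of this pool supplies the growth cone and the shaft with proteins for the cytoskeleton, mitochondria, ribosomes and signalling. The pool of a given mRNA falls when decay outruns delivery, and sequence elements in an mRNA, microRNA sites among them, are known to set its lifetime. MicroRNAs pair with their targets mainly through the seed near their 5′ end.

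Both microRNAs whose predicted targets are described at the end share a seed, which is why the study treated them as a pair. Their mature mouse sequences from RefSeq (GRCm38.p6) are given 5′ to 3′ with the seed, bases 2 to 8, in capitals. Both lie on the plus strand of chromosome 7, miR-326-3p at chr7:99552328-99552348 and miR-330-5p at chr7:19181486-19181507.
mmu-miR-326-3p: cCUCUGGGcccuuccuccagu
mmu-miR-330-5p: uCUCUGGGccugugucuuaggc
The seed CUCUGGG is the same in both, and the 21 and 22 bases differ outside it. miR-485-5p, also of the study, is treated by its target list.

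Intensities on both axon arrays were close. The median intensity was 102.54 with stimulation and 89.3 without, a ratio of 1.15, and the correlation of log10 intensity across spots was 0.965. Across axons and cell bodies it was 0.927 with stimulation and 0.930 without, where spots on 1 membrane share its labelling and background and are not replicates. A background level was set for each array as the 95th percentile of the 384 spots at places 25 and 50 of each row of 50, which carry no name. It was 42.5 with stimulation and 21.9 without, and 88.4% and 94.6% of the named spots lay above it. On both cell body arrays this level was 10, a value at which many spots are listed.

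Each intensity was taken to log10 and turned into a z-score over all spots of its array. The z ratio of a spot is the z-score with stimulation minus that without, divided by the SD of this difference over all spots, 0.263, and the spots of a gene were averaged to give its z ratio. A gene is called higher at a z ratio of 1.4 or more and lower at -1.4 or less, the cut used in the study's methods. By that cut, 180 of 6284 genes (2.86%) were higher and 312 (4.96%) were lower in stimulated axons. Over all genes 3040 lay below 0, and the median was 0.02 with an SD over genes of 0.885.

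How the calls split between directions depended on the scale. With a robust z-score 273 genes were higher and 207 lower, and with a log2 ratio at a threshold of 1 there were 190 and 137, so that higher genes made up 56.9% and 58.1% of the calls against 36.6% here. The robust z-score moves the median of all genes up by 0.25, and the lists below are read against the median of all genes for that reason.

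Most calls came from dim spots measured once. Of the higher genes 177 lay below the array mean and 168 had 1 spot. Of the lower genes 222 lay below the array mean and 280 had 1 spot. A spot at or below background on an axon array was present in 240 called genes, 123 of them lower. Among the 2576 genes above the array mean, that is with a mean z-score over both axon arrays above 0, 3 (0.116%) were higher and 90 (3.49%) were lower. Genes above the array mean, called bright below, thus crossed the cut almost only downwards, while their median z ratio was 0.10 and 1061 lay below 0. That mean includes both arrays compared, so a gene can pass through the array where it is high. C4A, for instance, had z-scores of -0.08 with stimulation and 0.70 without, and LRP3 had 1.33 and -1.31. With z-scores and their SD taken over bright spots alone, 113 genes were higher and 225 lower. Only genes with a bright spot enter there, and both counts are a larger share of these genes than the calls over all genes.

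**Figure D1:**
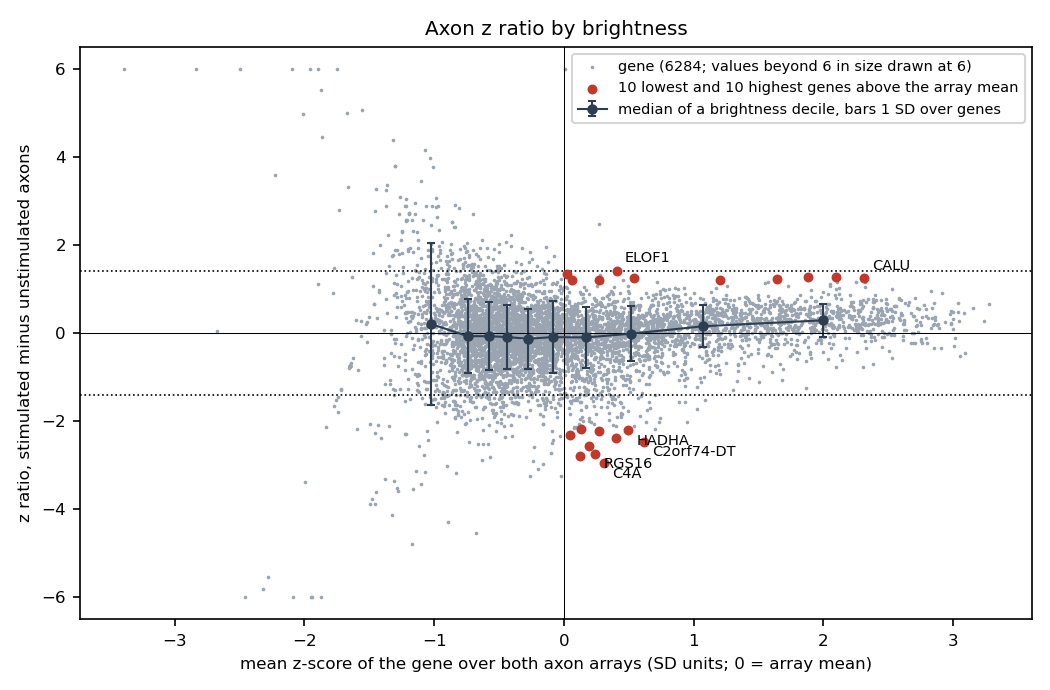
The z ratio of each of 6284 genes (vertical axis, stimulated minus unstimulated axons, in SD of the spot difference) is plotted against its mean z-score over both axon arrays (horizontal axis), with the median and SD of each brightness decile and the cut of 1.4 as dotted lines. The spread narrows from an SD of 1.84 in the dimmest decile to 0.37 in the brightest, the decile medians run from -0.13 to 0.29, and the lowest bright genes lie just above the array mean.

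The size of a z ratio moved with brightness. From the dimmest to the brightest decile the SD over genes went from 1.84 to 0.37, and the median was 0.21 in the dimmest, lay between -0.13 and -0.01 in the next 7, and was 0.15 and 0.29 in the brightest. No gene of the brightest decile was called, and 0 were higher and 7 lower in the decile before it. It moved with position as well, from a median of -0.12 over the first 800 spots to 0.21 in the block with the highest median. The part of these trends in a given gene's value was not tested, and the median of 12 of 69 lists with 8 or more genes moved by over 0.1 after a loess fit on brightness.

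Clones that name the same gene agreed weakly. Over 3640 pairs of such spots the correlation of z ratios was 0.08 and the typical difference within a pair, as an SD of a spot, was 0.885. Of these pairs 52.6% had the same sign. Where both spots were above the array mean, 639 pairs, these were 0.19, 0.496 and 55.2%. Spots that carry the same clone accession, 141 pairs, agreed in brightness with a correlation of 0.29 and in z ratio with 0.01. For the 45 such pairs with both spots above the array mean the correlations were 0.40 and 0.45, with a spread of 0.388. That spread is between spots of the same arrays and holds no variation between arrays, labellings or cultures. How closely a z ratio of a bright spot is known was therefore not tested. Spots of 1 array are repeats of a probe and not of the condition, and whether a spot holds the clone it is listed with was not tested.

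**Figure D2:**
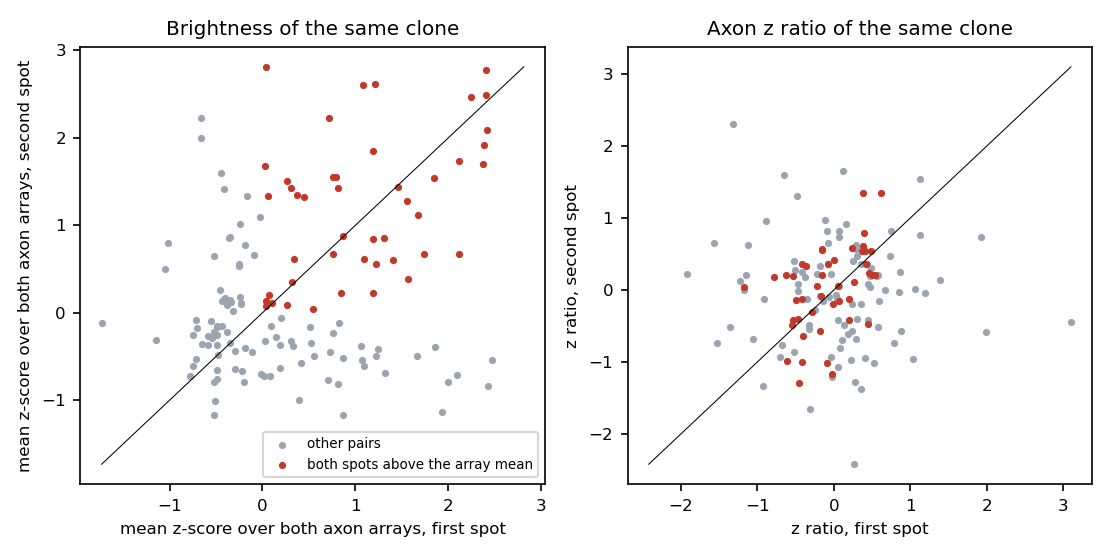
Each point is 1 of 141 pairs of spots listed with the same clone, by mean z-score over both axon arrays (left panel) and by z ratio (right panel), first spot on the horizontal and second on the vertical axis, with the line of equality and pairs above the array mean in red. Bright pairs lie nearer the line, with a correlation of 0.45 in z ratio over 45 pairs against 0.01 over all.

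The lowest bright transcripts in stimulated axons were mixed in function. They include C4A, a component of the complement cascade, RGS16, which speeds GTP hydrolysis on G protein alpha subunits, TRPV6, a calcium-selective channel, and RAB29, a small GTPase of the trans-Golgi network. HADHA, a subunit of the mitochondrial enzyme of fatty acid oxidation, and SPTLC1, a subunit of the enzyme that begins sphingolipid synthesis and is mutated in an inherited sensory neuropathy, were also among them. All 10 had 1 spot each, and in all 10 the intensity with stimulation was between 107 and 257 and without it between 238 and 641.

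C4A read 142.1 with stimulation and 427.6 without, a z ratio of -2.96. In RGS16 the intensities were 133.2 and 362.8 (z ratio -2.74), and in TRPV6 110.3 and 303.0 (-2.78). The spot next to that of TRPV6 on the membrane, RPL19, had a z ratio of -2.72, so that these neighbours moved together. NFKBID, an inhibitor of NF-kappaB in the nucleus, read 129.0 against 323.4 (-2.56). The transcripts C2orf74-DT (256.6 against 641.1, -2.47) and MGC2889 (185.3 against 439.2, -2.39) have no described role here.

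YAE1, named for a factor in iron-sulfur protein maturation, had 106.6 with stimulation and 238.1 without (-2.31). RAB29 had 155.4 and 341.4 (-2.23), beside a spot of SCNM1, a splicing factor, at 574.2 and 1079 (-1.73). HADHA had 223.8 and 494.2 (-2.20), beside a dim spot of SCG5, a chaperone of the neuropeptide convertase, at -3.02. SPTLC1 had 126.2 and 267.8 (-2.18). In cell bodies these 10 genes had z ratios from -0.37 to 0.97, and whether the compartments differ was not tested.

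The highest bright transcripts moved less. ELOF1, a transcription elongation factor, passed the cut, at 413.1 with stimulation and 192.5 without (1.42), and its z ratio was -0.90 in cell bodies. P3H2, a collagen prolyl hydroxylase of the endoplasmic reticulum (ER), read 220.9 against 102.7 (1.35). Both lie near the array mean, where the spread between spots is wider.

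Several of the next ones were bright. CALU, calumenin, a calcium-binding protein of the ER, gave the highest intensities, 8174 with stimulation and 4780 without (1.24). NDUFB11, a subunit of respiratory complex I, read 5880 against 3348 (1.26), and the spot next to it, of the p24 cargo protein TMED3, read 1.30. SLC26A6, an anion exchanger, had 4178 and 2333 (1.27), TMEM79 had 2827 and 1576 (1.23), and STAG3L3 had 1398 and 758 (1.21). FUBP1, a DNA- and RNA-binding protein, read 495.2 against 249.3 (1.26). IGFBP4, which binds insulin-like growth factors, read 319.2 against 160.3 (1.22), and ZKSCAN3, a zinc finger repressor of autophagy genes, 230.1 against 113.9 (1.21). These 8 stayed under the cut. Of the 10 highest, 6 had their spot among spots 8001 to 8800, the block with the highest median, and of the 10 lowest 0 did. Centred on the place and row of the membrane, the 10 highest read from 0.49 to 1.17 and none passed the cut, with CALU at 0.50 and NDUFB11 at 0.49, while the 10 lowest read from -3.62 to -1.93.

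**Figure D3:**
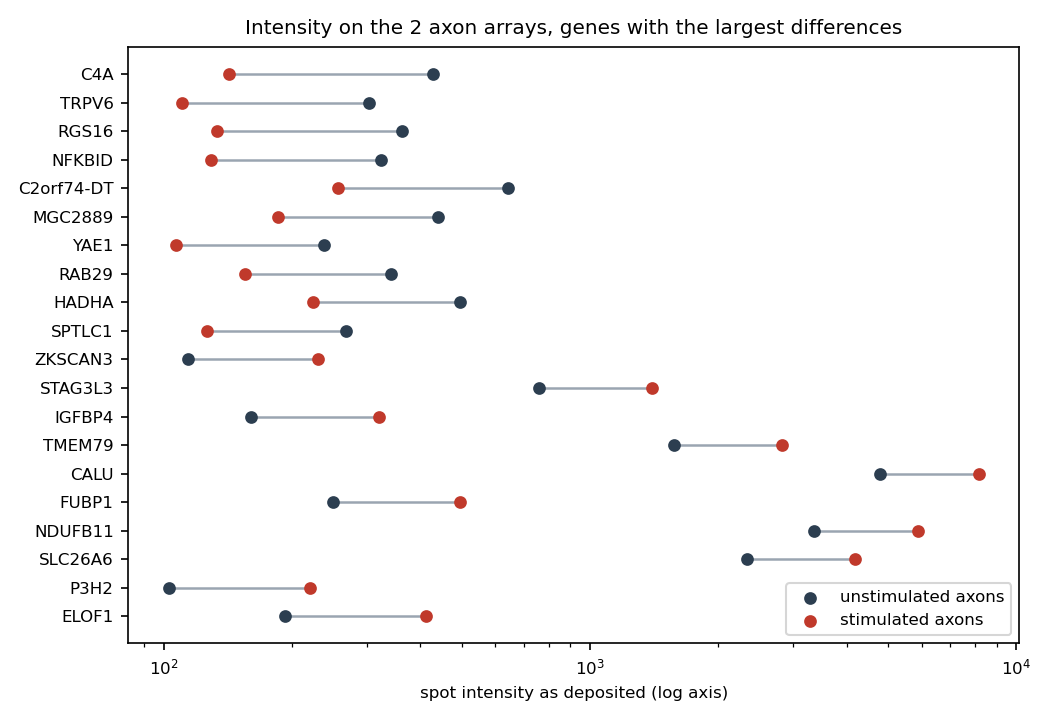
The deposited intensity (log axis) of the 10 lowest and 10 highest bright genes is drawn for unstimulated and stimulated axons, 1 spot and 1 array each, joined by a line. The 10 lowest lie between 107 and 641, while 5 of the 10 highest have both values above all of these.

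For 710 named spots, in 683 genes, the intensity was above background in only 1 of the conditions, where a ratio is a bound. Of these genes 55 were bright, and the 5 with the largest z ratios are given. LRP3 and MCM10 among them are, beside ELOF1, the bright genes called higher. The brighter intensity was set against the background level of the other array, both scaled to the array's median. LRP3, a receptor of the LDL receptor family, read 1321 with stimulation and 14.9 without on its 1 spot, at least 52.5-fold higher. In cell bodies the spot read 1980 with stimulation and 1783 without, so only the unstimulated axon reading was low. Whether that reading is a failed spot was not tested. The spot of MCM10, a DNA replication factor, that was at background read 60.0 against 6.02, at least 2.39-fold higher, while its other spot read 2892 and 2472 (z ratio 0.26). FAXC, whose relative in fly is needed for axon development, had a spot at 18.4 against 49.5, at least 1.34-fold lower, and another at 0.61. UNC45A, a myosin chaperone, had a spot at 41.5 against 66.6, at least 1.80-fold lower. The other spot of UNC45A read 772.2 against 813.0 (-0.37). RNPS1, a splicing activator, read 15.9 against 33.8 at its dim spot (-2.42), which allows no fold, and 3636 against 3135 (0.26) at the bright one. In none of these 4 genes with 2 spots did the bright spot pass the cut, and in FAXC and RNPS1 it lay on the other side of 0.

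Several clones of a gene give the nearest thing to a check in these arrays, though a weak one. Of 429 genes with 3 or more spots, all spots lay below 0 in 36 and above 0 in 54, and among the 210 of them above the array mean these were 15 and 35. Pairs of spots of 1 gene had the same sign in 52.6%, little more than random signs would give. Whether these counts exceed random signs was not tested, and the genes named next were picked by their means. DFFA, the inhibitor of the DNase that cuts DNA in apoptosis, was the lowest, with a mean of -1.68 and an SD over its 3 spots of 0.65. Its spots read 58.6 against 133.1 (-2.42), 334.9 against 519.9 (-1.35) and 363.8 against 543.9 (-1.26), all lower with stimulation. BUD23, a methyltransferase of the small ribosomal subunit, followed at -1.47 with an SD of 0.29, its spots reading 160.1 against 221.3 (-1.17), 445.9 against 840.2 (-1.76) and 62.4 against 94.3 (-1.49). No other bright gene with 3 or more spots passed the cut.

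Next came ACKR2, a scavenger receptor for chemokines, with spots from -1.93 to -0.97 and a mean of -1.29. PLIN3, a lipid droplet protein, had 4 spots from -1.66 to -0.32 (mean -1.14), and KIAA1191 had 3 from -1.80 to -0.34 (mean -1.03). RPL41, a small protein of the large ribosomal subunit, read 1790 against 2636 (-1.04), 66.7 against 97.3 and 1684 against 2034 (-0.59). In these 4 genes every spot had a z ratio below 0, though no mean passed the cut, and 2 of the spots were brighter with stimulation as deposited, KIAA1191 at 126.6 against 119.8 and PLIN3 at 339.2 against 335.7. GGCT, an enzyme of glutathione breakdown (mean -1.02), and HNRNPC, a nuclear RNA-binding protein (mean -0.93), had spots on both sides of 0. The brightest spot of HNRNPC read 8713 against 8560 (0.07), and the low mean came from dim spots at -2.55 and -2.13.

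On the other side AP1M2, a subunit of a clathrin adaptor, had a mean of 1.32 that came from a spot at 23.3 against 4.51 (3.09), with 0.22 and 0.65 at the others. RPL14, another protein of the large ribosomal subunit, read 120.6 against 76.0 (0.58), 150.7 against 71.0 (1.28) and 13952 against 9395 (0.98), the opposite direction to RPL41 at every spot. PRKAB1, a subunit of the energy sensor AMPK, had 4 bright spots from 0.38 to 1.35, all higher with stimulation, with a mean of 0.77. TMED3 (mean 0.91, spots 0.25 to 1.30), the protease CAPN1 (0.85, spots 0.21 to 1.19), TOMM40, the channel of the mitochondrial outer membrane (0.80, spots 0.11 to 1.93), TMEM51 (0.65, spots 0.52 to 0.86) and HLA-DPB1 (0.63, spots 0.03 to 1.15) were also above 0 at every spot. None of these 8 means passed the cut.

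**Figure D4:**
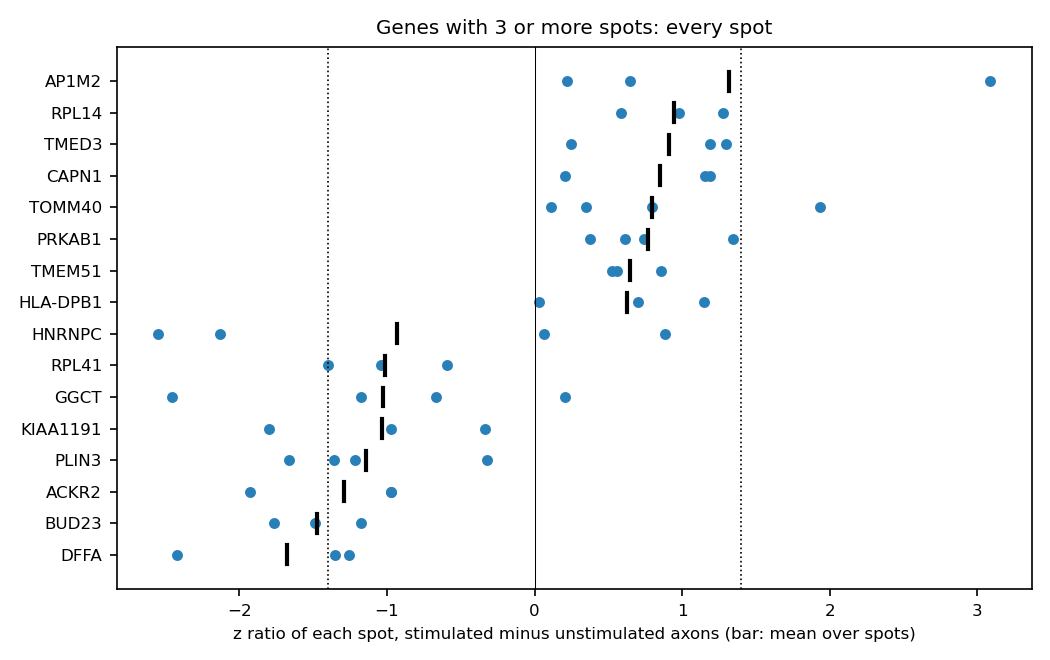
Every spot (point) and the mean (bar) of the 8 highest and 8 lowest bright genes with 3 or more spots are drawn by z ratio, with the cut of 1.4 dotted. DFFA and BUD23 have means of -1.68 and -1.47 with all 3 spots below 0, while HNRNPC has spots from -2.55 to 0.88.

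A stricter reading asks for every spot of a gene past the cut, which was counted after the values were seen. Of 1488 genes with 2 or more spots, 8 had all spots at -1.4 or less and 2 at 1.4 or more, where 32 and 12 had such a mean. The lower ones were TMSB4X, NOLC1, TPMT, ORAI1, LTF, EIF3I, IL18 and POLR1E, all with 2 spots. TMSB4X, thymosin beta 4, which holds actin monomers and is a known axonal mRNA, read 98.4 against 269.2 (-2.79) and 29.6 against 113.2 (-3.69). Its spots in cell bodies were at -1.43 and -0.59. EIF3I, a subunit of initiation factor 3, read 139.7 against 217.5 (-1.46) and 121.8 against 197.4 (-1.57), and LTF, lactotransferrin, 492.6 against 856.2 (-1.57) and 91.5 against 154.6 (-1.69). The first EIF3I spot lay next to a spot of DFFA (-1.26), and the second LTF spot next to the dim spot of UNC45A (-1.67). On their other sides these DFFA and UNC45A spots had neighbours at 0.11 and -0.22. The part of membrane position in these values was not tested. The higher ones, TMEM115 and ZXDC, were at 91.7 or less on all their spots. A related gene shows the limit of a mean: TMSB10 read 26859 against 26651 (0.17) at its bright spot and 216.3 against 579.3 (-2.65) at the other.

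Gene groups are described next by counts and by their median z ratio, against 0.02 over all genes and 0.10 over genes above the array mean. There are 72 lists in all, none was tested, and nothing is called particular to a list. Shares past the cut are read against 2.86% higher and 4.96% lower over all genes.

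Ribosomal protein genes lay below all genes in median, other translation genes less so. Of 40 proteins of the large cytosolic subunit 27 lay below 0, 3 were lower and 0 higher, with a median of -0.34, and of the 22 above the array mean 13 lay below 0 with a median of -0.30. In cell bodies their median was -0.06. Lower were RPL10A at 54.6 against 87.6 (-1.64), RPL11 at 61.5 against 92.8 (-1.49) and RPL19 (-1.49). The mean of RPL19 came from a spot at -2.72, between those of TRPV6 (-2.78) and MYL11 (-1.42). Its other spot read 66.7 against 58.9 (-0.25). By contrast RPL4 had 7 spots, all above 0, with a mean of 0.38, and RPL3 had 11 spots with a mean of 0.01. Of 22 proteins of the small subunit 14 lay below 0 and none was called, and the median was -0.25, but of the 5 above the array mean 4 lay above 0, among them RPS2 with 9 spots at a mean of 0.13. Taken over bright spots alone the small subunit had a median of -0.59 over 7 genes, the opposite side. The 55 mitochondrial ribosomal proteins had a median of -0.07, with 5 lower, MRPL3 at 181.6 against 280.4 (-1.41) among them, and 2 higher.

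Initiation factors, which load mRNA onto ribosomes, had 4 lower genes of 39 and none higher, and a median of -0.06. EIF4G1, the scaffold of the cap-binding complex, read 338.1 against 700.8 (-2.01), and EIF4A1, its helicase partner, read above 0 at 1.07. EIF4EBP3, a repressor of cap-dependent initiation, read 1862 against 2784 (-1.07), and EIF3E was at -0.06 over 5 spots. Of 8 elongation and termination factors 2 were lower and 1 higher, and the mean of EEF1A1, -1.64 over 9 spots, included a spot read at 0.12 with stimulation against a listed 10 without, both below background, whose z ratio was -11.35. EEF1G, another elongation factor subunit, was at 0.08 over 8 spots. The 25 aminoacyl-tRNA synthetases, which charge tRNA, had a median of 0.09, 0 lower and 1 higher.

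The respiratory chain did not move as a block. ATP synthase, which makes ATP from the proton gradient, had 12 of 14 genes below 0, none called, and a median of -0.66 (cell bodies -0.07). It was the lowest median of all lists with 8 or more genes, and it ran from -0.91 to -0.38 over the other z-score settings. Only 2 of its genes were above the array mean, ATP5MF at 5324 against 7332 (-0.76) and ATP5IF1, an inhibitor of the enzyme, at -0.07 over 3 spots. The lowest were ATP5F1E (-1.30), ATP5F1A (-1.06) and ATP5MK (-1.06). ATP5F1E and ATP5MK were also below 0 in cell bodies, at -1.85 and -1.17.

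Complex I had 15 of 31 genes below 0 and a median of 0.03, with 10 of its 15 bright genes above 0. NDUFA10 read 245.9 against 523.3 (-2.11) and was its only call, and NDUFB3 read 441.4 against 240.4 (1.07). Cytochrome c oxidase had 6 of 10 genes below 0 and a median of -0.24, with COX7C at -0.77 and COX4I1, a known axonal mRNA, at -0.24. Cytochrome c itself, CYCS, was at -0.61 over 14 spots. Mitochondrial import genes had a median of -0.13, with TOMM7 lower at 321.7 against 583.8 (-1.71) while TOMM40 was above 0.

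Of the fuel pathways, the citric acid cycle had 3 of 15 genes below 0, none called and a median of 0.13, among them PC, pyruvate carboxylase, at 1522 against 1149 (0.47). Glycolysis genes had a median of -0.13 and the bright enzymes ALDOA and PFKL, 6 spots each, were at 0.33 and 0.55. Cholesterol and fatty acid synthesis had a median of 0.15, with DHCR7, the last step of cholesterol synthesis, at 2390 against 1381 (1.13) and SCD, a fatty acid desaturase, at 0.79. Redox enzymes had a median of -0.16. PARK7, a sensor of oxidative stress mutated in familial parkinsonism, was lower, at 509.8 against 884.4 (-1.56) on 1 spot.

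Among protein turnover genes the lists differed. Ubiquitin-conjugating and activating enzymes had 10 of 25 genes below 0 and a median of 0.14, and all 9 above the array mean were above 0. UBE3A, the ligase lost in Angelman syndrome, had a mean of 1.14 over its spots, and UBE2V2 was at 0.63 with all 3 spots above 0. UBE2R2 was lower at 85.2 against 197 (-2.42). The 19S proteasome had a median of 0.22 over all 17 genes (0.05 after the loess fit) and -0.01 over its bright ones, and the 20S core had a median of -0.03, with PSMB10 at 11056 against 7275 (1.01). Chaperones had 35 of 57 genes below 0 and a median of -0.22 (-0.04 after the loess fit), but of the 18 bright ones 6 lay below 0 with a median of 0.15.

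RNA decay factors had most members above 0. Of 27 genes, 7 lay below 0, 1 was lower and 2 were higher, and the median was 0.31 (0.34 after the loess fit), with 7 of 8 bright genes above 0. The CCR4-NOT complex, which removes poly(A) tails, gave CNOT3 at 2045 against 1360 (0.79), CNOT7 at 2090 against 1551 (0.54) and CNOT1, higher, at 42.5 against a listed 10 (2.71). Background was 42.5 with stimulation and 21.9 without, so CNOT1 read at about background with stimulation and below it without. The nuclear exonuclease XRN2 read 634.1 against 439.3 (0.56), SMG5, of nonsense-mediated decay, 3273 against 2491 (0.54), and AGO2, the effector of microRNAs, was at 0.21. DCPS, which clears cap remnants, was lower at 77.9 against 204.9 (-2.72). In cell bodies the median of the list was -0.28, with CNOT3 at 0.02 and CNOT7 at 0.20.

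Other RNA-binding groups lay close to all genes. The hnRNPs had a median of -0.02, the SR and snRNP proteins -0.02 with PRPF8, the core of the spliceosome, lower at 140.5 against 229.7 (-1.57), and the DEAD and DEAH box helicases 0.09. RNA-binding proteins known from axons and dendrites had a median of -0.07. RBM3, a cold-induced RNA-binding protein, was lower at 148.8 against 256.3 (-1.68), and CAPRIN1, of RNA granules, read 3571 against 2867 (0.42).

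Transport between ER and Golgi held more genes above 0 than below. Of 55 coat, ARF and ER to Golgi genes 17 lay below 0, with a median of 0.27 (0.18 after the loess fit), 1 lower and 2 higher. Over its 23 bright genes the median was 0.22. SAR1A, the GTPase that builds COPII coats, read 8336 against 6637 (0.54), COPZ1, a COPI subunit, 6475 against 5302 (0.45), SEC22B, a SNARE of this step, 3404 against 2571 (0.56), and ARL2 4099 against 2911 (0.72). ARL11 was lower, at 218.5 against 344.6 (-1.44), and TRAPPC6A read -0.77. The 2 higher genes, TMED7 and TRAPPC2L, read 92.7 and 44.1 with stimulation.

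Endosome and synapse groups were near all genes, with medians of 0.02 for SNAREs and adaptors, 0.04 for RAB GTPases and 0.07 for synaptic vesicle proteins. SYNGR1, synaptogyrin, a membrane protein of synaptic vesicles, was lower at 348.4 against 695.0 (-1.92) on 1 spot, while VAMP2, the vesicle SNARE, read 588.9 against 496.9 (0.10) and PCLO, a scaffold of the active zone, 0.49. Vacuolar ATPase, the proton pump of vesicles and lysosomes, had 10 of 14 genes below 0 and a median of -0.30, which was -0.05 over its 4 bright genes. Kinesins, dynein and dynactin, the motors of axonal transport, had a median of 0.14, with 11 of 12 bright genes above 0, led by KLC4, a kinesin light chain, at 1778 against 1157 (0.82) and DCTN5, of dynactin, at 5615 against 3949 (0.78).

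The cytoskeleton showed no common direction. Actins and their binding proteins had 27 of 54 genes below 0 and a median of 0.01. ACTB, a well-known axonal mRNA, had 7 spots from -0.39 to 0.92 with a mean of 0.18, and its brightest read 5510 against 4500 (0.43). ACTG1 had 9 spots with a mean of -0.25, and TAGLN, transgelin, read 3784 against 5680 as a mean of 2 spots. Tubulins had a median of 0.02, with TUBA1B at 0.27 over 13 spots and TUBB at 0.02 over 6. TUBD1, delta-tubulin, was lower at 148.0 against 295.4 (-2.02).

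Intermediate filaments had the highest median of the lists with 8 or more genes, 0.37, but 9 genes and with INA, internexin, at 69.7 against 19.3 (2.40) and VIM at 62.8 against 13.9 (2.89), both dim. GFAP, the filament of astrocytes and some glia, was lower at 20.8 against 29.7 (-1.48), and over bright spots alone the median of the list turned to -0.13 over 6 genes. NEFM, the medium neurofilament, read 270.4 against 259.9 (-0.29). Myosins had 9 of 13 genes below 0 with MYL10 lower at 658.0 against 1138 (-1.52).

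Guidance and growth genes held no call. Of 17 guidance ligands and receptors 5 lay below 0, with a median of 0.23 that stayed between 0.12 and 0.53 over the other z-score settings. RTN4R, the receptor of the growth inhibitor RTN4, read 1047 against 701.9 (0.69), and RTN4 itself was at 0.16 over 6 spots. SEMA4C, a transmembrane semaphorin, read 1146 against 857.7 (0.45) and SEMA3B, a secreted one, had a mean of 0.31. NRP2, a semaphorin co-receptor, read 357.5 against 374.7 (-0.45), and NRP1, on dim spots, 0.71. Neurotrophic factors and receptors had a median of 0.02, with RET, the receptor of GDNF ligands, at 0.21. Growth and regeneration genes had a median of -0.06, with GAP43 at 125.7 against 107.4 (-0.11), STAT3 at -0.31 over 3 spots and SMAD1, of BMP signalling, at 426.6 against 279.8 (0.64).

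Transcripts known from axons in earlier work gave 6 lower and 1 higher of 41, a median of -0.10, and 24 below 0. Beside TMSB4X, PARK7 and EEF1A1 the lower ones were PRDX1, a peroxidase, at -1.75 over 2 spots, YWHAZ, of the 14-3-3 family, at 44.02 against 90.23 (-2.22), and KPNB1, importin beta, at 2.36 against 21.8 on a spot below background. Of the classical ones, FTL, the ferritin light chain, had 8 spots with a mean of -0.31, and its 2 bright spots read 0.20 and -0.03. UCHL1 read 6959 against 7455 (-0.16) at its bright spot. Over the 15 bright members the median was 0.06, over the 24 with a bright spot, by those spots alone, it was -0.41, and after the loess fit it was 0.04 over all. The direction of the list thus depends on the setting, and the lower calls, PARK7 apart, were on genes below the array mean.

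Channel and pump genes lay below all genes in median. Of 11 sodium and calcium channel and pump genes 8 lay below 0 and 2 were lower, with a median of -0.51 (-0.38 over 5 bright ones). ORAI1, the pore of store-operated calcium entry, read 31.8 against 58.0 (-1.99) and 32.0 against 48.4 (-1.57) and was lower in cell bodies too, at -2.37 and -0.88. ORAI2 read 287.3 against 393.8 (-1.09) and ORAI3 180.3 against 177.4 (-0.38). FXYD2 and FXYD5, small regulators of the sodium pump, were at -0.82 and -1.47, while the pump subunit ATP1B1 read 667.6 against 525.1 (0.28). Potassium, chloride and cation channels had 17 of 25 genes below 0 and a median of -0.20, and neurotransmitter receptors 9 of 15 and -0.27. No member of the latter list but P2RY6 was above the array mean.

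Signalling groups differed among themselves. The MAP kinase and PI3 kinase pathway had 10 of 36 genes below 0, none called and a median of 0.14. FYN, a SRC family kinase, read 1278 against 751.3 (1.02), RPS6KB2, an S6 kinase, had a mean of 0.89, HRAS read 388.2 against 243.7 (0.73), and MAPK3 was at 0.07. Calcium-binding proteins had 21 of 50 genes below 0 and no call, and their kinases a median of 0.05. PRKAG1, an AMPK subunit, was lower at 149.6 against 255.6 (-1.66), against the 4 spots of PRKAB1 above 0. Of 52 phosphatase subunits 4 were lower and 0 higher, DUSP23 at 307.3 against 567.0 (-1.76) being the brightest, with a median of 0.00. G protein and RGS genes had a median of 0.16, and apart from RGS16 their bright members RGS19 (0.69) and GNB1 (0.50, 3 spots above 0) were higher than 0. G protein-coupled receptors had 12 of 19 genes below 0, no call and a median of -0.22, against 0.19 over 7 bright ones, and 14-3-3 proteins 4 of 6 below 0 and a median of -0.07.

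Activity-induced genes, which neurons transcribe in the nucleus after firing, had 13 of 37 below 0, 1 lower, 1 higher and a median of 0.11, against 0.06 over their bright members. FOS read 115.9 against 98.7 (-0.11), ARC 42.05 against 35.28 (-0.19), NR4A1 174.9 against 141.3 (0.06), and JUNB had 3 spots with a mean of -0.28. The highest bright ones were FOSL1 at 350.3 against 200.1 (0.93), MAFF at 414.4 against 254.3 (0.79), FOSL2 at 3648 against 2562 (0.73) and KLF6 at 0.73, none past the cut. ATF4, of the integrated stress response, had a mean of -0.73 over 4 spots. The called genes, NR4A2 (2.32) and ID3 (-1.48), read 36.1 and 54.7 with stimulation.

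Nuclear groups leaned lower at the transcription machinery. RNA polymerase II and its general factors had 36 of 57 genes below 0 and a median of -0.25, -0.23 over 16 bright genes, of which 11 lay below 0, and from -0.29 to -0.06 over the other z-score settings. MED31, a Mediator subunit, read 7896 against 10149 (-0.56), and POLR2I and POLR2L, polymerase subunits, had means of -0.61 and -0.50. ELOF1 above belongs to the same list. Chromatin genes had 32 of 52 below 0 and a median of -0.18, and histones, 3 lower and 1 higher of 21, gave H2BC11 at 115.9 against 241.9 (-2.15) and H2AC6 at 275.8 against 534.4 (-1.88). Zinc finger ZNF genes had a median of -0.09, cell cycle genes 0.08 and ribosome biogenesis 0.07.

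Cell surface and matrix genes had 16 of 49 below 0, 1 lower and 2 higher, with a median of 0.19 (0.10 after the loess fit) and of 0.36 over 23 bright genes, 4 of which lay below 0. MMP1, a collagenase, read 7298 against 4407 (1.16), ITGA5, the fibronectin receptor, 1172 against 758.3 (0.79), and TIMP4, an inhibitor of such proteases, 1919 against 1356 (0.64). SPARC, a matrix glycoprotein, had a mean of -0.97 over 2 spots.

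Markers listed for neurons and for other cells both gave signal on the axon arrays. Of 26 sensory neuron markers 10 were measured, and PRPH, POU4F1 and SCN9A were not among them. Of these 10, 4 lay below 0 with a median of 0.04 and no call, THY1 reading 4531 against 4181 (0.13). THY1 is on the fibroblast list as well and enters the sums of both lists, so its signal does not tell these cells apart. The summed intensity of these 10 was 8522 with stimulation and 8035 without. Of 8 measured Schwann cell and satellite glia markers (of 15) 3 lay below 0, 1 was lower and 0 higher, with a median of 0.17. The bright ones were SOX10 and GJB1, at 0.09 and 0.24. Among those below 0 were GFAP, the lower one at -1.48, and CNP at -0.43 with all 3 spots below 0. The sums of these 8 were 2297 and 1800.5. Of 9 measured fibroblast markers (of 16) 2 lay below 0, 0 were lower and 2 higher, with a median of 0.22. That median was 0.08 after the loess fit and -0.07 over bright spots alone. FN1 at 10815 against 9268 (0.40) and S100A4 at 20789 against 17852 (0.47) were bright, and VIM and PDGFRA were higher on dim spots. The 2 below 0 were SPARC, described above, and the lowest of the list at -1.27. The sums of these 9 were 38617 and 33492. Of 5 measured macrophage and leukocyte markers (of 10) 3 lay below 0 with a median of -0.02 and sums of 1909 and 1806, and the 1 endothelial marker measured, CLDN5, read 29.8 against 8.54. Matrix genes and fibroblast markers both had medians above that of all genes, and the part of other cells in the former was not tested.

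**Figure D5:**
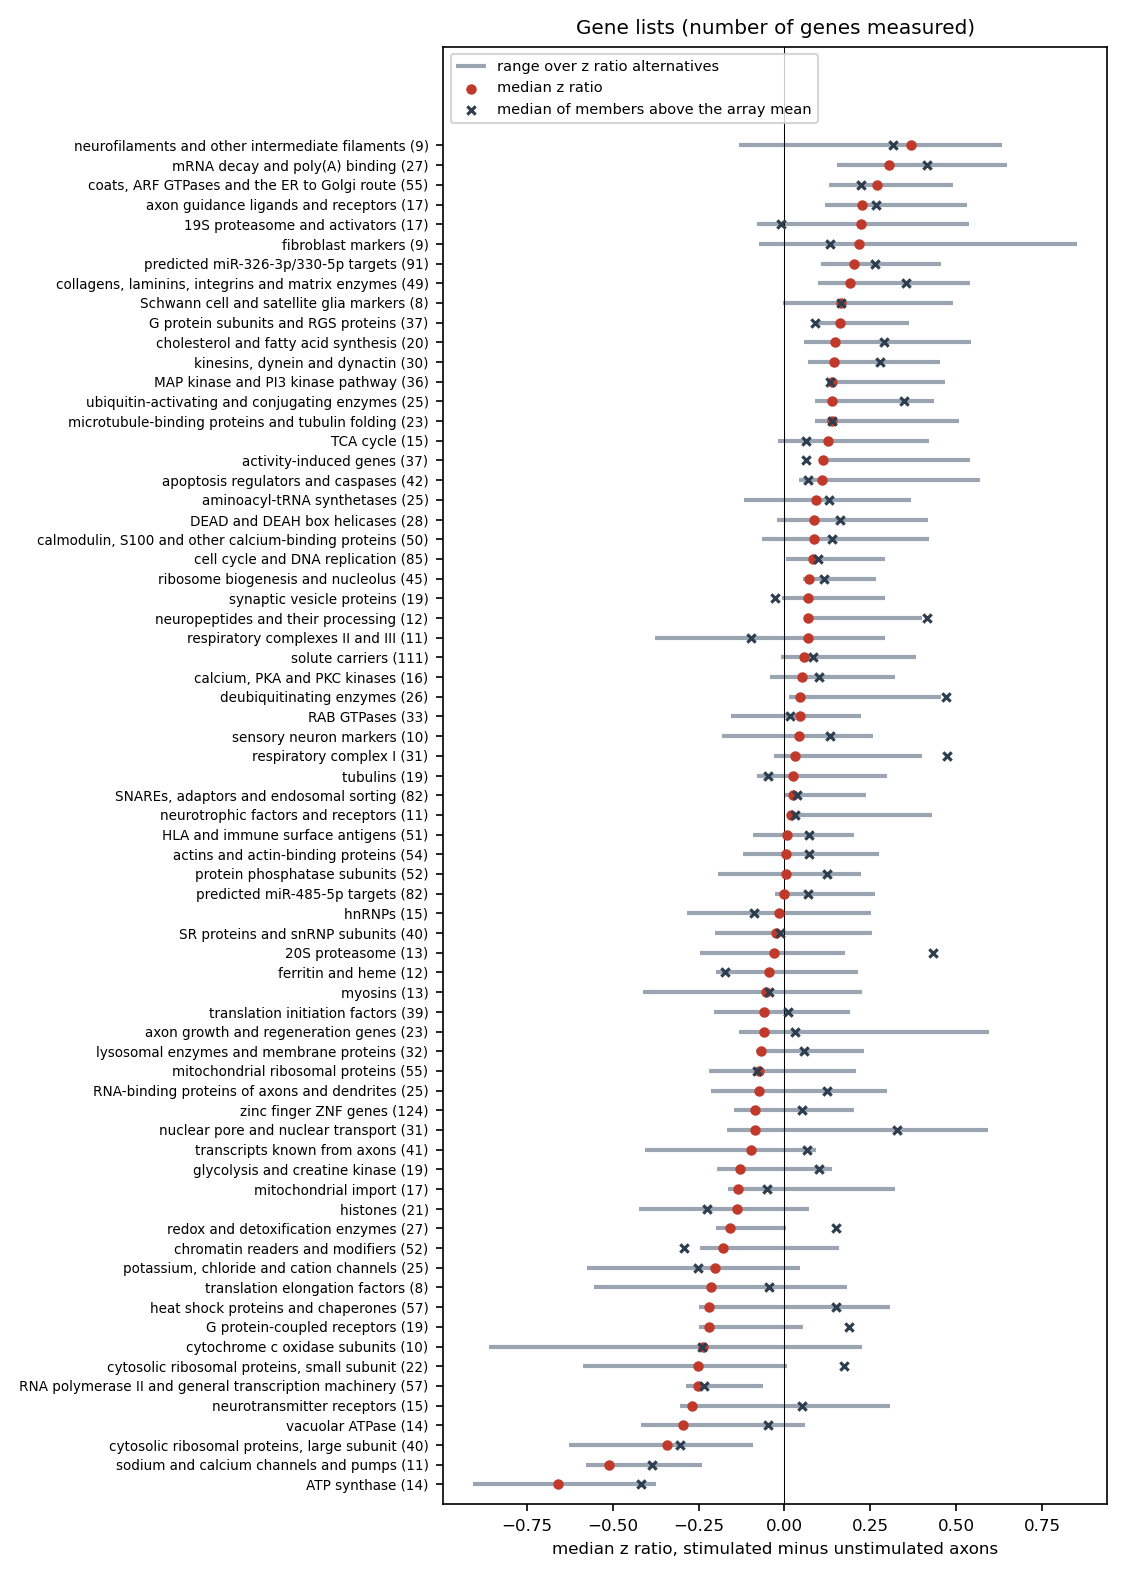
The median z ratio of each list with 8 or more genes (red points, number of genes in brackets) is shown with its range over the other z-score settings (bars) and the median of its members above the array mean (crosses). ATP synthase is lowest at -0.66 and intermediate filaments highest at 0.37, and most bars cross 0.

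Predicted targets of the paired microRNAs lay above all genes in median. Of the 291 symbols on the study's target list for miR-326-3p and miR-330-5p, 91 were measured, of which 37 lay below 0, 5 were lower and 4 higher, with a median of 0.20. Over 39 bright targets 11 lay below 0 with a median of 0.26, and in cell bodies the median was 0.05. ITGA5, DCTN5 and ELOF1 are on this list, as is SDC3, a syndecan of neurons, at 664.2 against 380.7, while SCNM1 was lower (-1.73). For miR-485-5p 82 of 245 symbols were measured, 42 lay below 0, 2 were lower and 4 higher, and the median was -0.00 in axons and 0.17 in cell bodies. SYNGR1 was lower (-1.92) and TAGLN below 0, with KLF6 at 0.73 and TPD52L2 at 773.4 against 477.9 (0.84) on the other side. The lists share 5 measured genes, and the microRNAs themselves were not measured on these arrays.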

How the data were processed

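RNA of axons with and without stimulation was amplified by the authors, labelled with 33P, hybridized to nylon membranes of cDNA clones and read with a phosphor imager. The authors deposited a raw intensity for each of 9600 spots in 2 tables, which held no differing value (0), with no normalization between arrays. Their handling of background was not stated in the paper or the labels. The deposited tables hold no columns of other samples. Clones took their gene from the platform's annotation, and 21 spots naming several genes and 1083 without a name entered the z-scores but no gene.

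From the intensities, z-scores of log10 intensity over all spots and z ratios were computed as in the study's methods, with their cut of 1.4. The number of arrays limits the precision. Genes named are the 10 lowest and 10 highest above the array mean and above background on both arrays, the 8 lowest and 8 highest with 3 or more spots, the 5 largest bounds, list members past the cut or with the largest z ratios, members with 5 or more spots, cell type markers and activity-induced genes. Other genes were named after their values were seen. The members, the 72 lists and the alternatives were chosen with earlier results of these data known. Target lists are 2 lists of predicted targets in the study's supplement, and promoters and proteins were not used.

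The results were recomputed under 12 other settings and 1 chosen after seeing the data, in which each difference was centred on the median and divided by the SD of its brightness decile. Calculations used Python 3.11.15, numpy 2.4.6, pandas 2.3.3, statsmodels 0.14.6 (loess, span 0.3), matplotlib 3.10.9, R 4.3.3 and limma 3.58.1 (normexp, offset 50), and were tested on simulated data.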

Additional observations from a re-analysis of the deposited data

Results flagged for a closer look

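Of the 36 bright genes named as lowest or highest, 19 had axon and cell body z ratios of opposite sign, and in 2 of them the axon value was past 1.4 and the cell body value past 0.7 in size. NFKBID was at -2.56 in axons and at 0.974 in cell bodies, and ELOF1 was at 1.42 in axons and at -0.901 in cell bodies. The difference between compartments was not tested, since each value rests on 1 spot and 1 array a side.

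Spots without a gene name also carried signal. Of 699 such spots outside places 25 and 50 of a row, 630 were above background on both axon arrays and 299 were above the array mean. Of these 299, 13 had a z ratio of -1.4 or less and 0 had 1.4 or more, with values from -2.57 to 1.28. With 1 array a side there is no test of these counts.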

How the results depend on the processing

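Counts of called genes depended on how dim spots were treated, and higher genes outnumbered lower ones with a robust z-score and a log2 ratio. Of the 36 genes named as lowest or highest none changed direction in any alternative. They were picked by their z ratios and every alternative uses the same 2 arrays, so a kept direction is no independent support. The 180 higher genes became 273 with a robust z-score, 315 after normexp background correction, 113 over spots above the array mean only, 312 over spots above background on both arrays only, 75 at a threshold of 2 and 271 with the SD of the brightness decile. The 312 lower genes became 137 with a log2 ratio, 207 with a robust z-score, 475 after normexp, 96 at a threshold of 2 and 511 with the SD of the brightness decile. Of the higher genes, 2 were still called over spots above the array mean only, and of the lower genes 96. Fewer genes enter with bright spots only and with spots above background on both arrays only. As shares of the genes entering, the 113 and 312 higher genes both lie above the 2.86% over all genes. The causes of these changes were not tested. SD over genes, quantile normalization, loess, medians over spots, the other table and centring on place and row left both counts within 1.5 times. Medians below 0 for ATP synthase, the large ribosomal subunit and RNA polymerase II, and above 0 for RNA decay, ER to Golgi and guidance genes, kept their sign in 11 of 11 alternatives. Against the median of all genes, ER to Golgi genes kept their side in 10 of 11 and the others in 11 of 11. Other lists, the MAP kinase and PI3 kinase pathway among them, kept their sign in 11 of 11 too. Scaling by the SD over genes cannot change a sign, so a kept sign is no independent support.

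Dim signal limits the arrays, since 88.4% and 94.6% of named spots were above background. No paired analysis was possible because each condition has 1 array, and for the same reason leaving out a replicate was not an option.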

Other observations

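Further groups lay near all genes. Solute carriers had 53 of 111 genes below 0, 6 lower and 7 higher, and a median of 0.06. Of the bright ones SLC66A1, a lysosomal exporter of cationic amino acids, read 151.5 with stimulation and 310.0 without (-2.08), SLC7A11, the cystine and glutamate exchanger, 293.0 against 475.6 (-1.47), and SLC16A4 190.6 against 298.0 (-1.44). SLC25A3, the mitochondrial phosphate carrier, was at 0.18 over 9 spots. Lysosomal genes had 17 of 32 below 0 and a median of -0.07, with LAMP1 at 1340 against 1087 (0.29) and CTSF, a cysteine protease, at 158.5 against 224.9 (-1.23).

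Neuropeptides and their processing had 5 of 12 genes below 0 and a median of 0.07. Their bright genes were the granule protein CHGA, with 3 spots all above 0 and a mean of 0.48, PCSK1N, a convertase inhibitor, at 2545 against 1753 (0.73), PAM, the amidating enzyme, at 1078 against 842.4 (0.35), and CCK at 584.0 against 529.6 (-0.06). Microtubule-binding proteins had 8 of 23 below 0 and a median of 0.14, with MAP7D1 at 0.76 and MAP1LC3A, of autophagosomes, at 415.7 against 265.4 (0.70), and DPYSL5, a collapsin response mediator, at 158.8 against 201.3 (-0.98).

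Deubiquitinating enzymes had a median of 0.05 and, over bright genes, USP25 at 624.0 against 390.1 (0.79) and OTUD5 at 673.7 against 440.3 (0.70). Genes of immune surface antigens had a median of 0.01, with KLRC1 lower at 161.8 against 299.3 (-1.84). Apoptosis genes had 19 of 42 below 0, 2 lower, DFFA among them, and a median of 0.11, with BIRC2 at 9698 against 7044 (0.77). Nuclear pore and transport genes had a median of -0.09, in which NUP88 read 542.8 against 362.1 (0.63) and RAN had 5 spots with a mean of 0.25.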
